A study of Mus musculus with 3 samples.

Results

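The genes described here separated a primary culture of mouse retinal pigment epithelium (RPE) from cultures of both other pigmented epithelia of the eye, the iris pigment epithelium (IPE) and the ciliary body pigment epithelium (CBPE). A gene was a member when its signal on the RPE array was at least 2-fold above, or at least 2-fold below, its signal on each of the other arrays. Of 13345 named genes with a signal above the floor on at least 1 array, 102 (0.764%) were above both others and 137 (1.03%) were below both, 239 members in all. Every count of list members below is to be read beside these shares. The floor was the median signal of each array, 14.5 for IPE, 17.3 for CBPE and 16.8 for RPE, and lower signals were raised to it before comparison. The same values chose the members and are described here, so they are given with no test.

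Each culture was measured on 1 array. All cells came from C57BL/6 mice of 6 to 8 weeks, and the labels do not say how many animals or dishes each RNA represents. IPE and CBPE were released with Dispase and DNase I and grown in RPMI 1640 with 10% serum, whereas RPE was taken from the posterior eyecup with trypsin and grown in DMEM with 20% serum. All 3 cultures were kept without serum overnight before 1 µg of RNA was used. More than 99% of the IPE cells, and more than 95% of the cells in both other cultures, stained for cytokeratin per the labels, which also give 14 days of culture for CBPE and RPE. Tissue, isolation method, medium and serum therefore changed together between RPE and both others and cannot be told apart. In addition, fewer cells of a type and less RNA per cell cannot be told apart in such bulk RNA.

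The RPE is the pigmented layer behind the retina that recycles the visual pigment, takes up shed photoreceptor tips, carries glucose and lactate between choroid and retina, and secretes factors that act on choroidal vessels. Cells sense oxygen through the hypoxia-inducible factors (HIF), whose alpha subunits are hydroxylated by the Egln prolyl hydroxylases when oxygen is present and are then destroyed through the Vhl protein. When they are stable they bind DNA with Arnt and switch on genes of glycolysis, vessel growth and their own feedback. Class 3 semaphorins, a second family that recurs below, are secreted guidance proteins that bind neuropilins and plexins on axons and endothelial cells.

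The label of the RPE array was checked against genes that define this epithelium. Rpe65, the isomerase of the visual cycle, had signals of 1.0 (IPE), 1.0 (CBPE) and 2.4 (RPE), all under the floor. Lrat, which makes the retinyl esters that Rpe65 uses, had 2.7, 12.1 and 0.6 in the same order. Best1, a chloride channel of the RPE basal membrane, had 2.4, 25.1 and 1.9. The opsin-like genes Rgr and Rrh and the transthyretin gene Ttr were also under the floor on the RPE array. Rlbp1, the retinaldehyde-binding protein, was just above the floor in RPE at 17.3 and was higher in IPE at 84.0. Genes shared by all pigment epithelia were measurable: Mitf, the master regulator of pigment cells, had 321.1 in IPE, 63.3 in CBPE and 102.0 in RPE. Tyr, the tyrosinase of melanin synthesis, had 1113.6, 384.4 and 493.3. Of 23 identity genes on the array, 12 were above the floor in RPE against 15 in IPE and 15 in CBPE, and none was a member in either direction. Against IPE 13 of 15 measured identity genes were lower in RPE, with a median log2 difference of -0.56. Against CBPE 12 of 16 were lower, with a median of -0.46. The data thus show pigment genes on the array labelled RPE. Of the visual cycle genes described here, Rpe65, Lrat, Rgr and Rrh were under its floor and Rlbp1 was just above it. The name "RPE" below stands for that label.

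**Figure D1:**
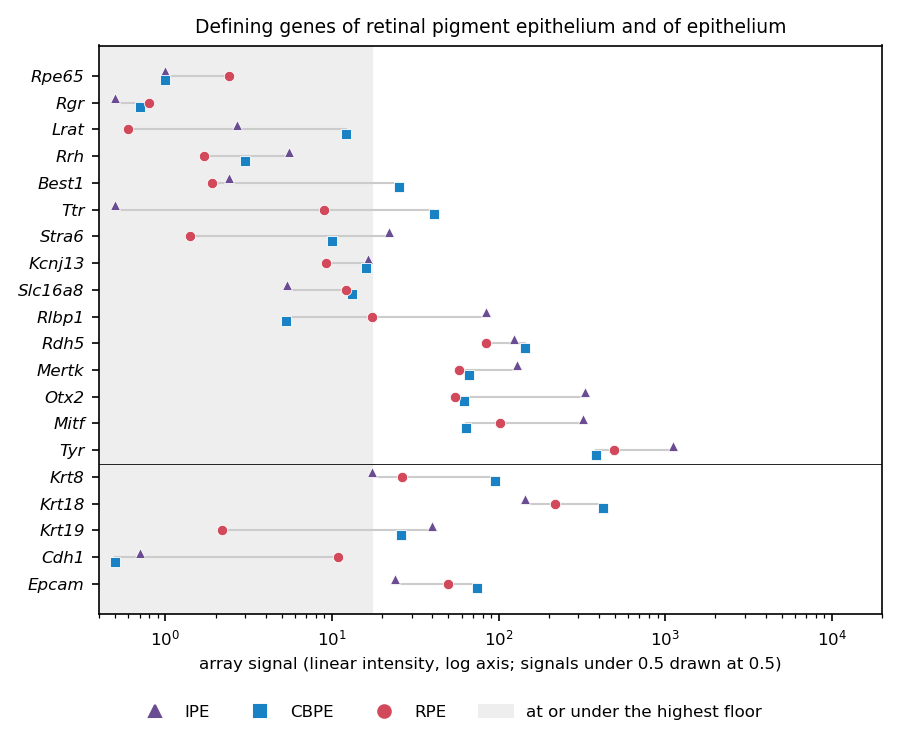
Signals of genes that define retinal pigment epithelium (upper block) and of epithelial keratins and junction genes (lower block) on the 3 arrays, 1 point per array, on a log axis with the grey zone at or under the highest floor (17.3). Rpe65, Rgr and Rrh lie in the grey zone on all 3 arrays, and Tyr and Mitf lie to its right on all 3.

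Keratins were present at low to moderate level in the RPE culture. Krt18 had signals of 144.1 (IPE), 422.4 (CBPE) and 218.6 (RPE), and Krt8, its partner, had 17.4, 95.3 and 26.2. The RPE values lay between those of the other cultures for both genes. The summed signal of 20 epithelial keratin and junction genes was 2285.8 (IPE), 1322.4 (CBPE) and 992.8 (RPE), lowest in RPE. The medians of that list were 0.11 against IPE and -0.30 against CBPE. Cdh1 was under the floor on all 3 arrays, at 0.7, 0.5 and 10.8. RNA quality also differed among arrays: the ratio of the 3′ to the 5′ control probe set of Actb came to 1.5 (IPE), 2.26 (CBPE) and 2.25 (RPE), so RPE resembled CBPE and stood apart from IPE. The part of this difference in the results was not tested.

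Against single cultures the RPE array was further from IPE than from CBPE. Against IPE, 1228 of 12446 measured genes (9.87%) were at least 2-fold higher in RPE and 1303 (10.5%) at least 2-fold lower. Against CBPE, 482 of 12860 (3.75%) were higher and 548 (4.26%) lower. The 2 comparisons share the RPE array, so a value that was wrong on it would enter both. By the same rule IPE stood apart from both others in 853 genes above and 818 below, and CBPE in 291 above and 292 below, so RPE had the fewest members of the 3 cultures. How far probe sets of 1 gene with bright signals disagreed was the only measure of error, with a pooled SD of the log2 difference of 0.45 against IPE and 0.29 against CBPE. The spread between cultures is not part of it.

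**Figure D2:**
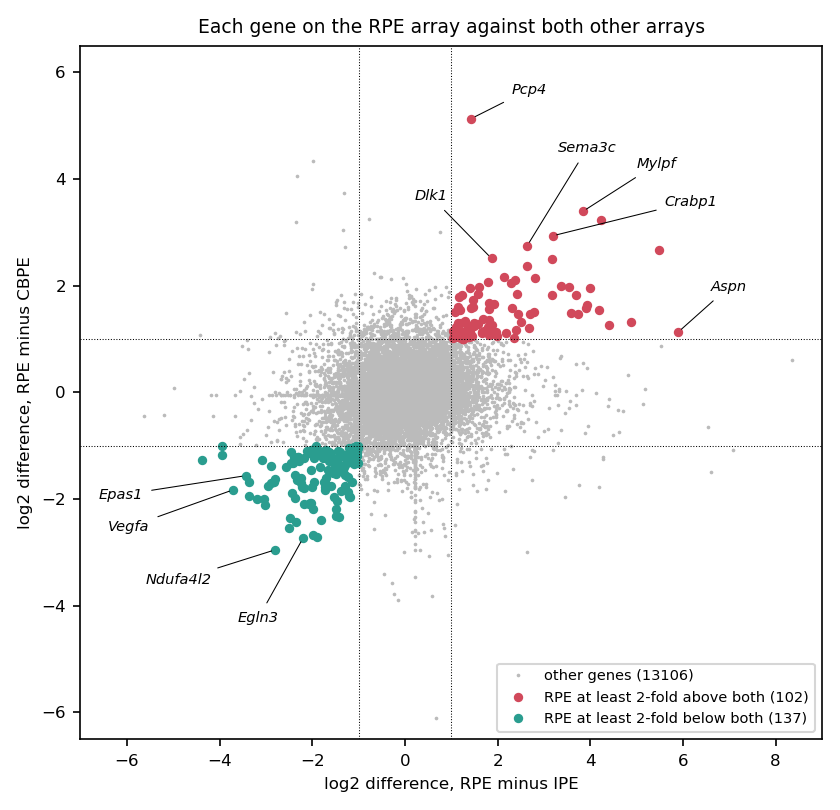
Log2 difference of RPE minus IPE (horizontal) and RPE minus CBPE (vertical) for each of 13345 genes, 1 point per gene, with dotted lines at the 2-fold limits. The 102 members above both fill the upper right corner and the 137 members below both the lower left corner. Both axes use the RPE array, so a tilt of the cloud is built in.

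Most members lay close to the 2-fold limit. The smaller of the 2 differences was under 2.5-fold in 61 of the 102 genes above both and in 75 of the 137 below both, and was at least 4-fold in 11 and 10. Just inside the upper limit were Klrg2 and C1qtnf3, each with a smaller log2 difference of 1.00, and just outside it Rspo3 and Zfp974, each with 0.99. Just inside the lower limit were Msc and Zfp142, each with -1.0, and just outside were Ppp1r3b at -0.999 and Fblim1 at -0.996. The members above both were dim: 35 were at the floor in IPE and 22 in CBPE, 13 of them in both, and 52 had an RPE signal over 100. The members below both were brighter in the other cultures, with 57 over 100 in both, and 28 were at the floor in RPE. Transcripts known by a clone or predicted-gene name made up 9 of the 102 and 2 of the 137 and are counted but not named.

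Genes with more than 1 probe set give a partial check inside the same RNA. Direction was scored on signals raised to the floors, which differ among arrays. A probe set under the floors of both compared arrays was scored by the floors alone. It then counted as higher in RPE than in IPE, and as lower in RPE than in CBPE. The counts of agreement, mainly for members below both, are partly set by this. Among the members above both, 33 had another probe set above the floor, and in 24 of them all such probe sets pointed the same way against both cultures. Among the members below both, 63 had one, all pointed the same way in 33, and none did in 20. Where a gene described below by its signals had such a probe set that did not point the same way, or was scored by the floors, this is said beside it. Among the genes just inside the limits this was so for 1 of the 3 such probe sets of Zfp142, which was under the floors in IPE and RPE. A fold is written as "at least" where the dimmer signal was at or under the background limit of its array, which was the floor in IPE and RPE and 20.2, the highest signal of bacterial control transcripts absent from the samples, in CBPE. With that limit in place of the CBPE floor, 16 of the 102 genes above both were less than 2-fold above CBPE.

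Genes of the oxygen response were the largest group by number among those lower in RPE. Of 53 measured targets of HIF and genes of glucose transport and glycolysis, 13 were below both other cultures and 0 were above both. Against IPE, 24 of the 53 were at least 2-fold lower and 0 higher, with a median log2 difference of -0.90, whereas all genes had a median of 0.02. Against CBPE, 21 were at least 2-fold lower and 0 higher, with a median of -0.81. For all genes tested the share below both was 1.03%, and the members were chosen with these values known. Genes of the respiratory chain and the citric acid cycle gave 0 members among 33, with medians of 0.46 against IPE and -0.15 against CBPE.

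To show the DNA in front of these genes, the window from 250 bases before to 50 bases after the RefSeq start was searched on both strands for ACGTG, one of the forms of the core letters that HIF binds. The 4 windows below belong to members lower in RPE and hold the match in capitals (as CACGT where it lies on the other strand). Coordinates are on GRCm38.p6, and the sequence is read 5′ to 3′ on the strand of the gene. Egln3 lies on chr12:54203825-54204124, minus strand. Ankrd37 lies on chr8:45999801-46000100, minus strand. Hk2 lies on chr6:82774405-82774704, minus strand. Slc16a3 lies on chr11:120948817-120949116, plus strand.
Egln3: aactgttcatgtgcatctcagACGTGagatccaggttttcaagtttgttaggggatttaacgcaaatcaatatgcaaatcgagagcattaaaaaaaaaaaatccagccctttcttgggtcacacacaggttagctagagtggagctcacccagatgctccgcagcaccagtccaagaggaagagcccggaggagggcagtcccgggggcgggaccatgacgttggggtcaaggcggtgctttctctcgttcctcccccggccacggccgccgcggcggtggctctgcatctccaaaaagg
Ankrd37: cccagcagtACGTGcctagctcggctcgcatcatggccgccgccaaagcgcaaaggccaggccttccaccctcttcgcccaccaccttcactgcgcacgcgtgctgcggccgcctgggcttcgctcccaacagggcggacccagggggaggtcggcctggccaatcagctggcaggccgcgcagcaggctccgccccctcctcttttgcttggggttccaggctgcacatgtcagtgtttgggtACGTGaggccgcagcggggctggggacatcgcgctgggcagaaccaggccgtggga
Hk2: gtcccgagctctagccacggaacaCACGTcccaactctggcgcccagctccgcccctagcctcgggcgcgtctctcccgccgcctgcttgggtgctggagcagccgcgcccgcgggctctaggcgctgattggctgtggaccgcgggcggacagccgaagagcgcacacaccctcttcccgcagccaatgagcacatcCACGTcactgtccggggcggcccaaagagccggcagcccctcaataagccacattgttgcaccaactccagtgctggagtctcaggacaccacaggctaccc
Slc16a3: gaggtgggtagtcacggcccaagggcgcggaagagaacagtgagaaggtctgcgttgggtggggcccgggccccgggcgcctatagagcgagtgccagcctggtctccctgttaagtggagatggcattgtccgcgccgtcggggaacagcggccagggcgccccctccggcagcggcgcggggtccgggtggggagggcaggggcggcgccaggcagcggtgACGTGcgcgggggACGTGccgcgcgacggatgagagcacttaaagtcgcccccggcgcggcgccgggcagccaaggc
The match began 229 bases before the start in Egln3, 241 and 6 bases before it in Ankrd37, 226 and 52 in Hk2, and 27 and 14 in Slc16a3. None of these matches was part of the palindrome CACGTG. Egln1 and Pfkfb3 also held a match, and the searched windows of Vegfa, Pdk1, Ak4, Pfkl and Gys1 did not hold these letters. Ak4 had 4 windows, and Vegfa, Pdk1 and Pfkfb3 had 2 each, so their other starts were not searched. Of the 13 genes, 11 had a window and 6 of those (54.5%) held a match. Of the HIF and glycolysis genes that were not below both, 20 of 34 windows (58.8%) held one, against 2696 of 10735 (25.1%) for all genes. The other form, GCGTG, was in 45.5% of the former windows, 61.8% of the latter and 49.9% of all. The ACGTG letters therefore marked the list as a whole and did not separate its members below both from the rest. All members below both held ACGTG in 26 of 102 windows (25.5%) and members above both in 21 of 81 (25.9%).

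The sensors and regulators of the pathway come first. Egln3, a prolyl hydroxylase that is itself induced by HIF, gave 165.8 for IPE, 240.4 for CBPE and 36.1 for RPE, which was 4.59-fold and 6.66-fold lower. Egln1, the main oxygen sensor among these enzymes, had 532.4, 521.3 and 196.9, or 2.70-fold and 2.65-fold lower. Other probe sets of both genes pointed the same way. Epas1, which encodes the alpha subunit HIF-2 alpha, had 1809.5, 496.3 and 168.1, or 10.8-fold below IPE and 2.95-fold below CBPE. These were the 3 members among 10 genes of the HIF machinery.

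The rest of the machinery was not 2-fold apart from both cultures. Hif1a, the other alpha subunit, had 2954.5, 2322.9 and 2147.8, the lowest in RPE but within 2-fold of both. Arnt, the shared partner, had 329.1, 209.4 and 122.8, and Vhl, which marks hydroxylated HIF for destruction, had 276.1, 209.4 and 205.5. Egln2 had 319.7, 143.4 and 260.4, and Arnt2 had 328.0, 102.5 and 166.3, with RPE between both others for each.

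Several canonical HIF targets had their lowest signal in RPE by a wide margin. Ndufa4l2, a mitochondrial protein that lowers complex I activity, had 581.4 in IPE, 648.7 in CBPE and 83.9 in RPE, which was 6.93-fold and 7.73-fold lower and the largest smaller difference of all members below both. Ankrd37, a small ankyrin repeat protein, had 152.4, 176.7 and 38.7, or 3.94-fold and 4.57-fold lower. Ak4, a mitochondrial adenylate kinase, had 389.3, 395.3 and 92.4, or 4.21-fold and 4.28-fold lower. A second bright probe set of Ak4 repeated this at 356.5, 270.9 and 69.8. A dim one was under the floor in IPE and RPE, at 4.9 and 1.9, and another in CBPE and RPE, at 15.6 and 12.4. Bhlhe40, a clock-linked repressor, had 1247.3, 549.9 and 137.5, or 9.07-fold and 4.0-fold lower. IPE and CBPE were close to each other for Ndufa4l2, Ankrd37 and Ak4, whereas IPE exceeded CBPE for Bhlhe40.

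Enzymes and carriers of glucose use followed. Hk2, the hexokinase that traps glucose, had 598.5 in IPE, 269.9 in CBPE and 83.9 in RPE, or 7.13-fold and 3.22-fold lower. Pfkfb3, which makes the activator of phosphofructokinase, had 673.0, 327.5 and 82.1, or 8.20-fold and 3.99-fold lower. Pfkl, a phosphofructokinase subunit, had 1467.9, 1401.5 and 436.7, or 3.36-fold and 3.21-fold lower. RPE was the lowest of the 3 for each of these early steps.

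RPE was also the lowest for genes at the exit of glycolysis, where CBPE was the highest. Slc16a3, the lactate exporter MCT4, had 138.0 in IPE, 222.6 in CBPE and 35.0 in RPE, or 3.94-fold and 6.36-fold lower. Pdk1, the kinase that keeps pyruvate out of the mitochondria, had 426.2, 466.7 and 204.4, or 2.09-fold and 2.28-fold lower, and its 3 other probe sets pointed the same way. Other targets were not members: Ldha, lactate dehydrogenase A, had 3735.9, 8668.9 and 3491.1, and Slc2a1, the glucose transporter GLUT1, had 3259.8, 1822.2 and 1489.8. Bnip3, a mitophagy receptor, had 1706.1, 3132.0 and 889.2 and was within 2-fold of IPE. Angptl4, a lipase inhibitor, had its highest signal in RPE, at 254.6, 462.3 and 495.4.

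Glycogen genes lay alongside. Gys1, glycogen synthase, had 196.1, 218.7 and 64.6, or 3.04-fold and 3.39-fold lower, and Pygl, a glycogen phosphorylase, had 403.5, 188.2 and 81.3, or 4.96-fold and 2.31-fold lower. They were the 2 members among 14 measured genes of glycogen metabolism, a list written after the values were seen.

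**Figure D3:**
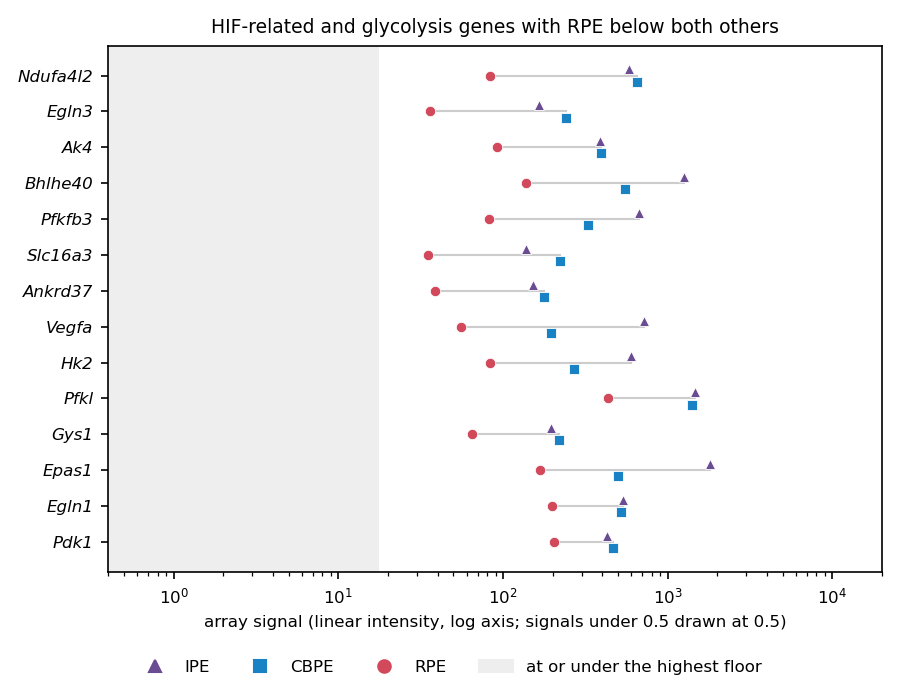
Signals on the 3 arrays (log axis, 1 point per array) of the 13 HIF target and glycolysis genes below both other cultures and of Epas1. In every row the RPE point is the leftmost, between 35.0 (Slc16a3) and 436.7 (Pfkl), and all lie to the right of the grey zone at or under the highest floor (17.3).

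Vessel-directed factors were split between the 2 directions. Vegfa, the main endothelial growth factor secreted by RPE in the eye, had 720.4 in IPE, 196.5 in CBPE and 55.4 in RPE, or 13.0-fold and 3.55-fold lower, and a second probe set gave 319.2, 56.0 and 19.8. Vegfd, a ligand of the lymphatic receptor, went the other way with 43.3, 186.4 and 520.9, or 12.0-fold and 2.79-fold higher in RPE. Its 2 other probe sets gave the same order. Angpt2, a ligand of the Tie2 receptor, had 130.9, 133.1 and 31.5, or 4.16-fold and 4.23-fold lower. A dim second probe set was under the floor in IPE and RPE, at 0.9 and 2.1. Edn1, the vasoconstrictor endothelin, had 86.7, 49.0 and 16.8, and Hbegf, a ligand of the EGF receptor, had 74.8, 117.0 and 32.1, lowest in RPE in both cases. Col18a1, the collagen that is cut to endostatin, had 729.5, 325.4 and 123.3. Of 24 measured angiogenic factors, 1 was above both and 4 were below both, against 0.764% and 1.03% of all genes. The list medians were 0.02 against IPE and -0.34 against CBPE. The value against IPE was that of Agt, at 16.6 in IPE and 4 in RPE. It lay above 0 only because the RPE signal was raised to its floor.

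Blood and vessel cells can carry such transcripts, and their markers differed among arrays. Emcn, an endothelial sialomucin, had 745.1 in IPE, 1114.8 in CBPE and 211.2 in RPE, or 3.53-fold and 5.28-fold lower. The defining endothelial genes Pecam1, at 14.2, 54.6 and 2.4, and Cdh5, at 7.8, 108.3 and 16, were at or under the floor in IPE and RPE and above it in CBPE. The summed signal of 14 endothelial markers came to 1335.1 (IPE), 2118.4 (CBPE) and 657.0 (RPE). Without Emcn it was 590.0, 1003.6 and 445.8, and the median log2 difference of the list was -0.04 against IPE and -1.23 against CBPE. Their part in the lower Emcn, Vegfa or Angpt2 signal was not tested.

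A pair of leukocyte genes was lower in RPE than in both others. Mpeg1, the macrophage pore protein, had 75.5 in IPE, 72.1 in CBPE and 2.8 in RPE, at least 4.49-fold and 4.29-fold lower. Ccl6, a macrophage chemokine, had 62.4, 109.9 and 10.5. Its second probe set gave 16.1, 46.8 and 8.6, with IPE just above the floor and RPE under it. The summed signal of 17 leukocyte markers was 416.8, 2816.4 and 596.7, and Ptprc, the gene of CD45, was under the floor on all 3 arrays at 2.9, 13.3 and 0.6. None of those 17 markers was a member, and Mpeg1 and Ccl6 are not among them. Against IPE the list went the other way, with 7 of 9 measured markers higher in RPE and a median of 0.60. That median was the value of Adgre1, at 13.4 in IPE, under the floor, and 22 in RPE, near it. Against CBPE all 13 measured markers were lower, with a median of -1.56. The CBPE array carried the most leukocyte signal, and its part in the differences from CBPE was not tested.

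Semaphorins were found in both directions. Sema3c, a class 3 semaphorin, had 169.7 in IPE, 157.5 in CBPE and 1056.2 in RPE, or 6.22-fold and 6.71-fold higher, and a second probe set gave 55.5, 62.1 and 205.4. Sema3a, the founding repulsive member, had 89.9, 74.5 and 267.7, or 2.98-fold and 3.59-fold higher. Sema3d had 18.9, 23.6 and 61.0, or 3.23-fold and 2.58-fold higher. The genes of Sema3a and Sema3d are next to each other among protein-coding genes on mouse chromosome 5.

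Other members of the family were lowest in RPE. Sema3g, which is made by endothelium in many tissues, had 350.6 in IPE, 40.5 in CBPE and 16.3 in RPE, at least 20.9-fold and 2.41-fold lower. Sema3b had 168.3, 142.7 and 60.3, or 2.79-fold and 2.37-fold lower. The transmembrane Sema6d had 211.7, 114.4 and 26.3, with a dimmer probe set that did not point the same way against CBPE. Plxnd1, a plexin receptor of endothelial cells, had 156.4, 97.2 and 31.2. The remaining class 3 genes, Sema3e at 188.1, 35.7 and 37.1 and Sema3f at 296.4, 101.7 and 118.7, had nearly the same signal in RPE as in CBPE. The co-receptors Nrp1, at 2184.6, 1142.9 and 1081.5, and Nrp2, at 1211.6, 860.3 and 915.7, were within 2-fold of CBPE as well. In all, 3 of 30 measured genes of the family were above both and 4 below both, against 0.764% and 1.03% of all genes. The list medians were -0.45 against IPE and -0.08 against CBPE.

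Signalling feedback genes were among those lowest in RPE. Dusp4, a nuclear phosphatase of ERK, had 54.4 in IPE, 51.1 in CBPE and 11.8 in RPE, at least 3.24-fold and 3.04-fold lower. Dusp18, another dual-specificity phosphatase, had 47.3, 48.5 and 6.3. Dusp16, a phosphatase of JNK, had 180.9, 94.5 and 43.9, and Spry1, an inhibitor of receptor tyrosine kinase signalling, had 425.7, 434.0 and 202.2. Atf3, a stress-induced transcription factor, had 87.2, 66.2 and 11.7, at least 5.19-fold and 3.94-fold lower. Fosl1, a Fos family member, had 53.5, 72.1 and 18.4, with a dim second probe set under the floor in IPE and RPE, at 9.4 and 16.1. Of 10 measured MAP kinase phosphatases, 3 were below both, and the list, written after the values were seen, had medians of -0.92 and -1.10. Of 26 immediate early genes 2 were below both, with medians of -0.43 against IPE and -0.78 against CBPE. For all genes the share below both was 1.03%. Serum differed between the cultures until the night before RNA extraction and cannot be told apart from the tissue.

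Developmental pathway genes were represented by a few members each. Ptch1, the Hedgehog receptor and target, had 416.4 in IPE, 218.9 in CBPE and 99.7 in RPE, or 4.18-fold and 2.20-fold lower, and Gli2, a transcription factor of that pathway, had 153.6, 137.4 and 66.7. The target Gli1 was under the floor in IPE and RPE, at 3.7 and 9.9, with 26.5 in CBPE. Another probe set of Ptch1 was dim, and under the floor in CBPE and RPE, at 13.6 and 3.5. The secreted Wnt inhibitors Sfrp4, at 103.6, 106.6 and 25.3, and Frzb, at 561.4, 337.7 and 144.0, were both lowest in RPE. Hey1, a Notch target, had 130.0, 75.4 and 35.1. Of the other genes with a large difference, Fam107a, a stress-induced actin-binding protein, had 95.5, 97.7 and 7.4, at least 5.68-fold and 5.82-fold lower. Another of its probe sets gave 34.4, 46.6 and 3.6, and a dim one was under the floor in IPE and RPE, at 0.5 and 9.3. Ndrg2, a differentiation-linked gene, had 223.4, 203.9 and 40.0, or 5.58-fold and 5.10-fold lower. Gucy1a1, the alpha subunit of the nitric oxide receptor, had 85.2, 90.6 and 16.2, at least 5.07-fold and 5.39-fold lower.

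Among the genes higher in RPE, the first were of striated muscle. Mylpf, a fast-muscle regulatory light chain, had 14.3 in IPE, 19.8 in CBPE and 207.7 in RPE, at least 14.3-fold and 10.3-fold higher. Myl1, the fast essential light chain, had 7.0, 29.0 and 270.6, at least 18.7-fold above IPE and 9.33-fold above CBPE. Tnnc2, fast troponin C, had 0.5, 4.2 and 89.8, at least 6.19-fold and 4.45-fold higher. For these 3 genes the RPE array had a clear signal while IPE was at the floor.

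Slow and fetal isoforms were higher too. Myl4, the embryonic and atrial light chain, had 26.5 in IPE, 39.7 in CBPE and 142.6 in RPE, or 5.38-fold and 3.59-fold higher. Tnnc1, slow troponin C, had 31.1, 70.7 and 176.5, and Acta1, skeletal actin, had 5.6, 33.7 and 76.1. Ryr3, a calcium release channel, had 19, 21 and 66.7, with a second probe set under the floor in RPE at 3.2.

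The whole marker list was less uneven. Of 20 measured skeletal muscle genes, 6 were above both, against 0.764% of all genes. The list medians were 1.47 against IPE and 0.24 against CBPE. The summed signal of the 30 listed markers, members included, came to 329.5 (IPE), 2040.6 (CBPE) and 2241.9 (RPE), and 5, 15 and 18 of them were above the floor. Without the 6 members the sum was 244.5, 1843.5 and 1278.6, highest in CBPE. Myh2, a fast myosin heavy chain, was highest in CBPE, at 32.8, 1362.8 and 808.8. The muscle-determining factors Myod1, at 6.3, 3.5 and 11.2, Myog, at 1.2, 2.1 and 5.5, Myf5, Myf6 and Pax7 were under the floor in RPE. Whether muscle cells or pigment cells held the transcripts was not tested.

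Genes of retinoid and aldehyde handling were another group. Crabp1, a cytosolic retinoic acid-binding protein, had 3.5 in IPE, 2.9 in CBPE and 132.1 in RPE, at least 9.11-fold and 6.54-fold higher. Adh1, an alcohol dehydrogenase that can oxidise retinol, had 17.6, 1.1 and 77.6, and Adh7, a stomach and corneal form with high activity on retinol, had 11.7, 5.7 and 74.8. Adh1 was 4.41-fold above IPE and at least 3.84-fold above CBPE, and Adh7 at least 5.16-fold and 3.70-fold above them. The 2 genes are next to each other among protein-coding genes on chromosome 3.

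Aldehyde dehydrogenases were also present. Aldh3a1, the abundant corneal aldehyde dehydrogenase, had 8.3 in IPE, 37.7 in CBPE and 149.9 in RPE, at least 10.3-fold above IPE and 3.98-fold above CBPE. Aldh16a1 had 37.0, 34.5 and 78.9, near the 2-fold limit, while Aldh5a1, of GABA breakdown, went the other way with 59.4, 44.4 and 10.1. Of 21 measured alcohol and aldehyde dehydrogenases, a list written after the values were seen, 4 were above both and 1 below. The shares for all genes were 0.764% and 1.03%. The list medians were 0.38 against IPE and -0.13 against CBPE. Crabp2, the paralogue of Crabp1, had 447.0, 824.0 and 1332.6 and was within 2-fold of CBPE. Of 17 measured retinoic acid genes Crabp1 was the 1 member, with list medians of -0.15 against IPE and -0.15 against CBPE.

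A few secreted matrix genes, Lrrc17, Epyc, Dpt, Aspn and Comp, were highest in RPE, intermediate in CBPE and at or near the floor in IPE. Lrrc17, a secreted leucine-rich repeat protein, had 3.9 in IPE, 102.0 in CBPE and 651.5 in RPE, at least 44.9-fold and 6.39-fold higher. Epyc, a small cartilage proteoglycan, had 5.0, 59.4 and 231.7, and Dpt, a collagen-binding protein of dermis, had 4.8, 71.7 and 222.5. Aspn, a small proteoglycan of cartilage and ligament, had 15, 409.0 and 894.6, or 59.6-fold and 2.19-fold higher, and its second probe set gave the same order. Comp, the oligomeric matrix protein of cartilage and tendon, had 14.9, 131.2 and 316.0, or 21.2-fold and 2.41-fold higher. Dcn, decorin, was lower in RPE at 5566.0, 6162.7 and 2706.6, with a dim second probe set that did not point the same way. The matrix lists as a whole did not follow them. Of 45 measured matrix proteins other than collagens 2 were above both and 1 below both, against 0.764% and 1.03% of all genes. Their medians were 0.36 against IPE and 0.0014 against CBPE. Of 32 measured collagens 0 were above both and 1 below both, and 25 of 29 were lower than in CBPE, with a median of -0.54. Col1a1, the main fibrillar collagen, had 3481.3, 8746.5 and 5603.2, highest in CBPE. Among 6 tendon markers 1, Comp, was above both, and the list median was 3.80 against IPE and -0.18 against CBPE. The part of other connective tissue cells in these values was not tested.

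Imprinted genes gave 2 members above both and 1, Dcn, below both among 19 measured, against 0.764% and 1.03% of all genes. Cdkn1c, the cell cycle inhibitor p57, had 775.0 in IPE, 752.4 in CBPE and 1890.4 in RPE, or 2.44-fold and 2.51-fold higher. Dlk1, a Notch-related membrane protein of progenitor cells, had 27.9, 17.9 and 101.9, or 3.65-fold and at least 5.04-fold higher. This Dlk1 probe set can match several transcripts, and the only other Dlk1 probe set was under the floor on all 3 arrays. Meg3, the noncoding transcript of the same imprinted cluster as Dlk1, had 146.4, 1433.3 and 2104.3, and Igf2 had 834.6, 280.7 and 258.1. Neither Meg3 nor Igf2 was 2-fold apart between RPE and CBPE.

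Chemokines and cytokines gave 2 members above both and 2 below both among 38 measured, against 0.764% and 1.03% of all genes. The list medians were 0.53 against IPE and -0.28 against CBPE. Cxcl14, a chemokine of epithelia, had 50.7 in IPE, 46.0 in CBPE and 140.1 in RPE, or 2.76-fold and 3.05-fold higher, while its second probe set, at 59.7, 65.6 and 69.8, was within 2-fold. Il18, an inflammasome cytokine, had 93.9, 85.1 and 208.5, or 2.22-fold and 2.45-fold higher. The members below both were Ccl6, given above, and Ccl8, a monocyte chemokine, at 42.4, 71.3 and 18.5.

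Other members with a large difference above both had varied roles. Epha3, an ephrin receptor, had 12.8, 43.0 and 168.2, at least 11.6-fold above IPE and 3.91-fold above CBPE. Pi16, a secreted protein of fibroblasts, had 8.8, 23.1 and 130.9, and Tmem26 had 24.4, 38.9 and 170.8. Aplf, a DNA break repair factor, had 14.7, 13.6 and 71.5. IPE was the lowest for Epha3, Pi16 and Tmem26, while Aplf was at or near the floor in both others.

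**Figure D4:**
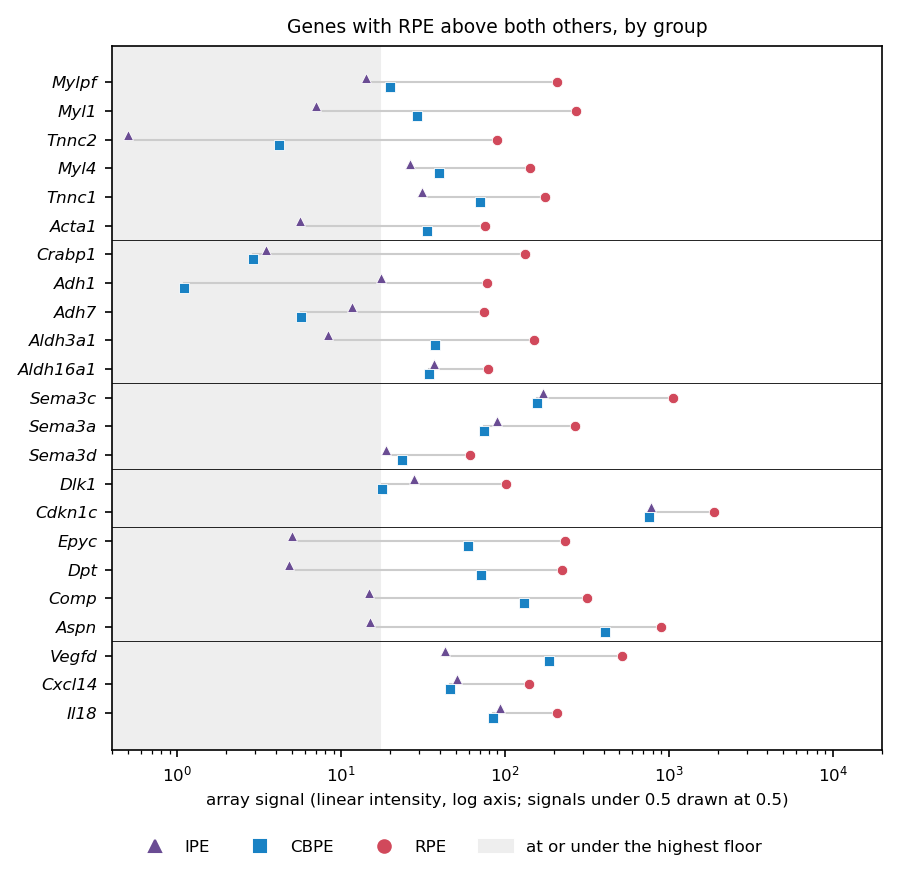
Signals on the 3 arrays (log axis, 1 point per array) of 23 genes above both other cultures, in blocks of muscle, retinoid and aldehyde, semaphorin, imprinted, matrix and secreted-signal genes. RPE is the rightmost point in every row, and the grey zone at or under the highest floor (17.3) holds the IPE point of several muscle and matrix genes.

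The HIF and glycolysis medians lay at about the same distance below 0 against both cultures. Other lists were also below 0 against both, among them MAP kinase phosphatases (-0.92 and -1.10), complement (-0.49 and -0.62), Notch genes (-0.44 and -0.51) and immediate early genes (-0.43 and -0.78). The RPE identity list (-0.56 and -0.46) and regional eye transcription factors (-1.86 and -0.16) were below 0 as well. Further lists lay on opposite sides of 0. Melanin genes had medians of -1.55 against IPE and 0.69 against CBPE, and 0 of 14 were members. Cell cycle genes had 0.90 and -0.26. The leukocyte list had 0.60 and -1.56.

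**Figure D5:**
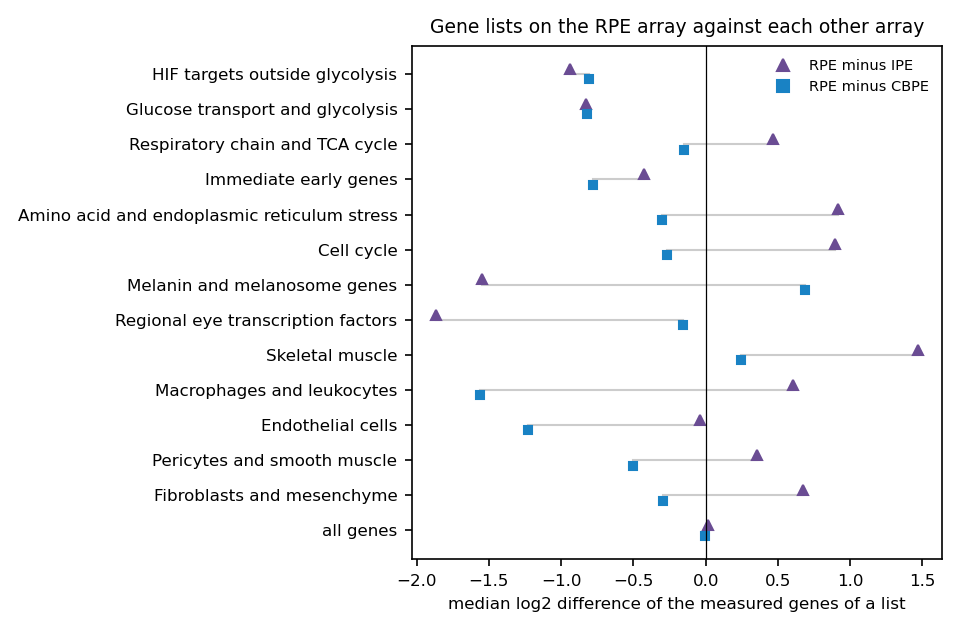
Median log2 difference of RPE minus IPE (triangles) and RPE minus CBPE (squares) over the measured genes of 13 gene lists and of all genes, with a vertical line at 0. Both HIF-related lists lie between -0.94 and -0.81 on both comparisons, immediate early genes also lie below 0 on both, and melanin, cell cycle and leukocyte lists lie on opposite sides of 0. Both comparisons share the RPE array.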

How the data were processed

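Biotin-labelled RNA of 3 cultures was measured on 1 array each. The deposited table holds linear intensity values for 45101 probe sets, 64 of them controls. The software that made them is not given in the sources used here. On each array the deposited values had a 2% trimmed mean of 100.001, and this scale was kept.

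Symbols came from a platform annotation of 2016, updated through RefSeq (GRCm38.p6). That annotation lists 35890 probe sets, 34958 with 1 gene and 932 with several, which were not named, and 9160 were not listed. Signals were raised to the 50th percentile of each array before log2, and a gene was represented by its brightest probe set (mean log2 signal), giving 18193 genes. Counts and log2 differences use these floors, and printed folds use the background limits given in the text.

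With 1 array per culture no test was made, and that number limits the precision. Named are the 15 members with the largest smaller difference in each direction, the first 6 members of each list, the 2 genes on each side of each limit, identity markers and most of the HIF machinery. Dpt, Ryr3 and Pdk1 were named outside this rule. Pathway genes that were no members, Pygl, Ptch1, Gli2, Dusp16, the dehydrogenases, Pcp4 and the genes in the closing section were chosen after their values were seen. The members, and 46 gene lists, were chosen with earlier results of these data known, and 7 lists were written after the values were seen. The scripted selection was tested on simulated data. Python 3.11.15, numpy 2.4.6, pandas 2.3.3 and matplotlib 3.10.9 were used. Alternatives changed the floor, scaling, probe set choice and fold limit. RefSeq start windows were available for 10735 genes, and 1 was searched for each gene.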

Additional observations from a re-analysis of the deposited data

How the results depend on the processing

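The main counts were 102 genes above both and 137 below both. With a fixed floor of 100 both became 30, of which 29 and 30 were among the original members. At a 3-fold limit they were 23 and 38, and 52 and 57 when the brighter array had to exceed 100. When a gene's probe sets were averaged, 79 remained below both, 76 of them shared, against 73 above. The floor at the 60th percentile (73 and 99), equal medians (94 and 171), quantile normalization (123 and 144) and leaving out multiply matching probe sets (94 and 126) stayed within 1.5 times. So did a background limit of 2 times the absent controls, an alternative chosen after seeing the data (86 and 123). The HIF and glycolysis median stayed between -1.11 and -0.76 against IPE and between -0.84 and -0.64 against CBPE under the 6 alternatives computed for it.

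The log2 difference of some members changed sign in 1 comparison. Without multiply matching probe sets, the log2 difference from CBPE became 0.44 for Frk and 0.20 for Macir. For Plekha4 the value against IPE was 0.18, which is only the RPE floor of 16.8 set against an IPE signal of 14.8, since the RPE signal of that probe set was 6.5. With averaged probe sets the difference became 0.26 for Dnajb12 (CBPE) and 0.076 for Rasal2 (IPE). With the floor of 100 it became -0.70 for Ptprd (IPE). For Frk, Macir and Ptprd the setting took another probe set of the gene. In Frk and Macir its CBPE signal was under the floor, at 13.3 and 6.7. For Dnajb12 and Rasal2 the mean took in a probe set that went the other way. Why probe sets of a gene differed was not tested.

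No paired analysis was possible because each culture had 1 array. Replicates could not be left out for the same reason. Of the members, 15 above and 14 below kept their 2-fold call under all 6 alternatives, among them Sema3c, Mylpf, Vegfd and Cdkn1c above and Ndufa4l2, Egln1, Hk2, Pfkfb3 and Bhlhe40 below. Members whose dim signal lies near the floor, such as Adh7, Crabp1 and Tnnc2, have folds that depend on the floor.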

Other observations

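Members outside the groups above included genes of iron handling. Steap3, an endosomal ferrireductase, had signals of 51.0 (IPE), 34.8 (CBPE) and 134.1 (RPE), or 2.63-fold and 3.85-fold higher in RPE. Steap4 had 1456.2, 1656.6 and 3430.4, though its second probe set (744.3, 263.1 and 818.2) was within 2-fold of IPE. Cp, the ferroxidase ceruloplasmin, was lower in RPE at 2325.2, 823.1 and 315.7, but 3 of its other probe sets did not point the same way against CBPE. These were the 3 members among 11 measured genes of a list written after the values were seen.

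Pcp4, a calmodulin-binding peptide, had 224.2, 7.5 and 606.5, and was the 1 member above both in which IPE exceeded CBPE at least 2-fold. Gas2, an actin-associated protein, had 22.0, 136.7 and 400.4. Ecrg4, a secreted precursor made by choroid plexus and other epithelia, had 134.5, 652.0 and 1796.9. In the Hippo pathway Sav1, a kinase scaffold, had 943.5, 507.9 and 243.8, and Wwc1 (Kibra) had 148.0, 143.6 and 71.5, while Vgll4, a TEAD cofactor, had 10.3, 22.4 and 53.4. Of the 22 members above both in which CBPE exceeded IPE at least 2-fold, Aspn, Comp and Gas2 are examples. No member below both had CBPE at least 2-fold above IPE, and 24 had the reverse.

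Single members of other lists were mostly close to the limit. Below both were Oas1a, an interferon-induced RNA sensor, at 180.6, 267.0 and 65.3, Ptges, a prostaglandin E synthase, at 164.0, 114.0 and 48.4, and Car2, carbonic anhydrase, at 60.9, 64.9 and 24.5. Slc6a6, the taurine transporter, had 1236.3, 1026.4 and 469.8, but a second probe set (291.5, 710.2 and 502.1) did not point the same way against IPE. Above both were Cd74, the invariant chain of antigen presentation, at 15.1, 16.6 and 42.4, and Gnat2, the cone transducin, at 4.2, 17.6 and 38.2, both dim. The summed signal of 20 photoreceptor markers was 110.3, 264.8 and 311.7, and its part in the Gnat2 value was not tested.

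Among 10092 probe sets with no gene name here, 109 (1.08%) were at least 2-fold above both others in RPE and 28 (0.277%) below both. These shares count single probe sets, also those under the floor on every array. They are therefore not comparable with the shares of genes given above. Neighbouring protein-coding genes that were both members, with no other between them, were Adh7 with Adh1, Sema3d with Sema3a and Rtl3 with Lpar4 above both, and Gli2 with Inhbb and Tubb4a with Tnfsf9 below both. A second probe set of Inhbb, at 23.8, 37.1 and 33.2, did not point the same way against IPE.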
